A study of Homo sapiens with 12 samples.

Results

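The canonical NF-κB subunits and the genes that restrain them were followed in 2 HER2 breast cancer cell lines given the cytokine TWEAK. The 10 genes were taken by symbol from a fixed list and matched to 10 of the 62696 Ensembl identifiers in the count tables. They are the subunit genes RELA, REL and NFKB1, the classical inhibitor genes NFKBIA, NFKBIB and NFKBIE, the atypical IκB genes NFKBIZ and BCL3, TNFAIP3, which encodes A20, and the kinase gene IKBKB. The rule that picks them uses no measured value, but the genes were chosen with earlier results of these data known. All 10 passed the filter on low counts in every comparison.

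NF-κB dimers of p65, c-Rel and p50 are held in the cytoplasm of resting cells by IκB proteins. The IκB kinase complex marks these inhibitors for destruction, which frees the dimers to enter the nucleus, and the genes of IκBα, IκBε and A20 are known targets of the dimers, so that the pathway feeds back on itself. Members of the TNF receptor family such as Fn14, the receptor of TWEAK, are also known to engage a non-canonical branch in which the kinase NIK drives the processing of p100 to p52, the partner of RelB.

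SKBR3 and MDA-MB-453 are established lines from HER2 breast cancer, and each contributed 3 untreated and 3 TWEAK-treated biological replicates to the 12 poly-A RNA-seq libraries. Treated cells were kept for 8 h in Opti-MEM without serum and then given 10 ng/ml TWEAK for 48 h, with a second addition at 24 h. Untreated replicates carry the same wording in the labels, which do not state their handling. Each line is a single cell line, so differences between lines cannot be told apart from any batch in which a line was grown or sequenced.

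Library totals lay between 24773003 and 35208304 counts. Levels are given as CPM, the counts scaled to a common library size with TMM factors over the 12 libraries. The mitochondrial share of counts was 4.02% to 4.3% in SKBR3 and 7.02% to 7.95% in MDA-MB-453. The second TWEAK replicate (replicate 2) was unlike its companions in SKBR3, with a chi-square per degree of freedom of 21.1 and 23.8 to them. In MDA-MB-453 it was 10.2 against replicate 1 and 5.31 against replicate 3, and it was at most 5.74 between any other replicates of a group. Each result that this library decides is therefore also given without it. Of 8 epithelial and HER2 markers, all were tested in MDA-MB-453 and 7 in SKBR3, where CDH1 held 1 to 7 counts per library. Of 9 markers of immune cells, fibroblasts and endothelium, COL1A1 (16.9 to 20.6 CPM in SKBR3, 106 to 123 in MDA-MB-453) and VWF (2.27 to 3.2 CPM in SKBR3, 0.192 to 0.522 in MDA-MB-453) were present, and the other 7 held at most 7 counts in any library. COL1A1 and VWF were not called under TWEAK in either line, and the other 7 had too few counts to be tested. KRT19, a keratin gene, was the epithelial marker called higher under TWEAK in SKBR3 (log2 fold change 0.32, adjusted p = 0.0608), and its part in the results was not tested.

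The promoter windows of these genes were examined for the κB consensus, the 10-base element that NF-κB dimers bind. RefSeq windows on GRCh38.p14, which run from 250 bases before to 50 bases after each start, were matched for 8 of the 10 genes. NFKBIE and IKBKB had no entry. A match to the consensus on either strand was found for 7 of these 8 genes, and RELA had none in 2 windows. Across all genes with an entry, 13.3% of 27303 had a match, and 11.3% of 35114 windows. A looser pattern, which fixes only the outer bases of the element, was found in 61.7% of all genes. All 8 of these genes had it, RELA included. Their windows held 51.3% to 80% G and C. The part of base composition in the share of genes with a κB match was not tested. The κB match is a description of letters and was not tied to binding, which was not analysed here. The 30 bases around the κB matches nearest the start are shown for each gene that had one. Matched letters are in capitals, 5′ to 3′ on the strand of the gene.
NFKB1, chr4:102501300-102501329, plus strand, first matched base 49 bases before the start: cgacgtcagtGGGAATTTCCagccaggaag
REL, chr2:60881518-60881547, plus strand, 47 bases before the start, where matches on the 2 strands overlap: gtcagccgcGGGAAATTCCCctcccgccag
NFKBIA, chr14:35404811-35404840, minus strand, 81 bases before the start: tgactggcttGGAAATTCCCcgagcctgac
NFKBIB, chr19:38899932-38899961, plus strand, 28 bases before the start of its second entry, with overlapping matches: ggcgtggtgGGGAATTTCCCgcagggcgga
NFKBIZ, chr3:101827757-101827786, plus strand, 223 bases before the start: tttttggtctGGGAATTTCCagtgtgcaga
BCL3, chr19:44748700-44748729, plus strand, from base 3 after the start, a match on both strands at once: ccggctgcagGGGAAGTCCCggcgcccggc
TNFAIP3, chr6:137867188-137867217, plus strand, from 67 and 55 bases before the start: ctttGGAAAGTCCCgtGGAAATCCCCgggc

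The same 10 letters, GGGAATTTCC, made up a match in 5 of these genes, on the strand of the gene in NFKB1, NFKBIB and NFKBIZ and on the opposite strand in REL and NFKBIA. TNFAIP3 had 2 separate matches before its start, and the second entries of NFKBIB and NFKBIZ each held a further match that is not shown. The longer upstream windows of NFKBIA and TNFAIP3 are given since both genes rose in both lines.
NFKBIA, chr14:35404750-35404999, minus strand: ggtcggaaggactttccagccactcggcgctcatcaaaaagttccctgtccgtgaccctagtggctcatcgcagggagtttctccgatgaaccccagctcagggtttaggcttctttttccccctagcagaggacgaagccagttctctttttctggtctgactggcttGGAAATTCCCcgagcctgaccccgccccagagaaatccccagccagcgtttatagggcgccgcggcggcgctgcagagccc
TNFAIP3, chr6:137867009-137867213, plus strand: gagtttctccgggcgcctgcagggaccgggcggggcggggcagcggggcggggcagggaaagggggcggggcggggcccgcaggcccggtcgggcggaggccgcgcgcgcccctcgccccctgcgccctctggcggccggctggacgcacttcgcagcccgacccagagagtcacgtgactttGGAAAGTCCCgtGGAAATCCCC

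The feedback genes NFKBIA, NFKBIE and TNFAIP3 rose under TWEAK in both lines, while RELA, REL, NFKBIZ and IKBKB were not called in either. REL was called higher in SKBR3 without TWEAK replicate 2. In SKBR3, NFKB1, NFKBIA, NFKBIE and TNFAIP3 rose and BCL3 fell, so that 5 of 10 genes were called at an adjusted p of at most 0.1, where 10.4% of 15661 genes tested were called (6.6% higher and 3.82% lower). In MDA-MB-453, NFKBIA, NFKBIB, NFKBIE and TNFAIP3 rose and BCL3 fell, again 5 of 10 genes, where 1.49% of 14929 genes tested were called (1.29% higher and 0.208% lower). Without TWEAK replicate 2 of the line, 6 of 10 genes were called in SKBR3, where 17.4% of all genes tested were (9.93% higher and 7.45% lower), and 5 of 10 in MDA-MB-453, where 13.8% were (6.59% higher and 7.22% lower). The replicates of the 2 conditions did not overlap for 5 of 10 genes in SKBR3, where 26.5% of all genes tested had no overlap, and for 6 of 10 in MDA-MB-453, where 15.1% had none. The 10 genes had a median log2 fold change of 0.23 in SKBR3, against -0.0074 over all genes tested, and of 0.15 in MDA-MB-453, against 0.0016. Unless DESeq2 is named, p-values are from edgeR's two-sided quasi-likelihood test with Benjamini-Hochberg adjustment over all genes tested. In bulk RNA, fewer cells that express a gene and less RNA of it per cell cannot be told apart.

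**Figure D1:**
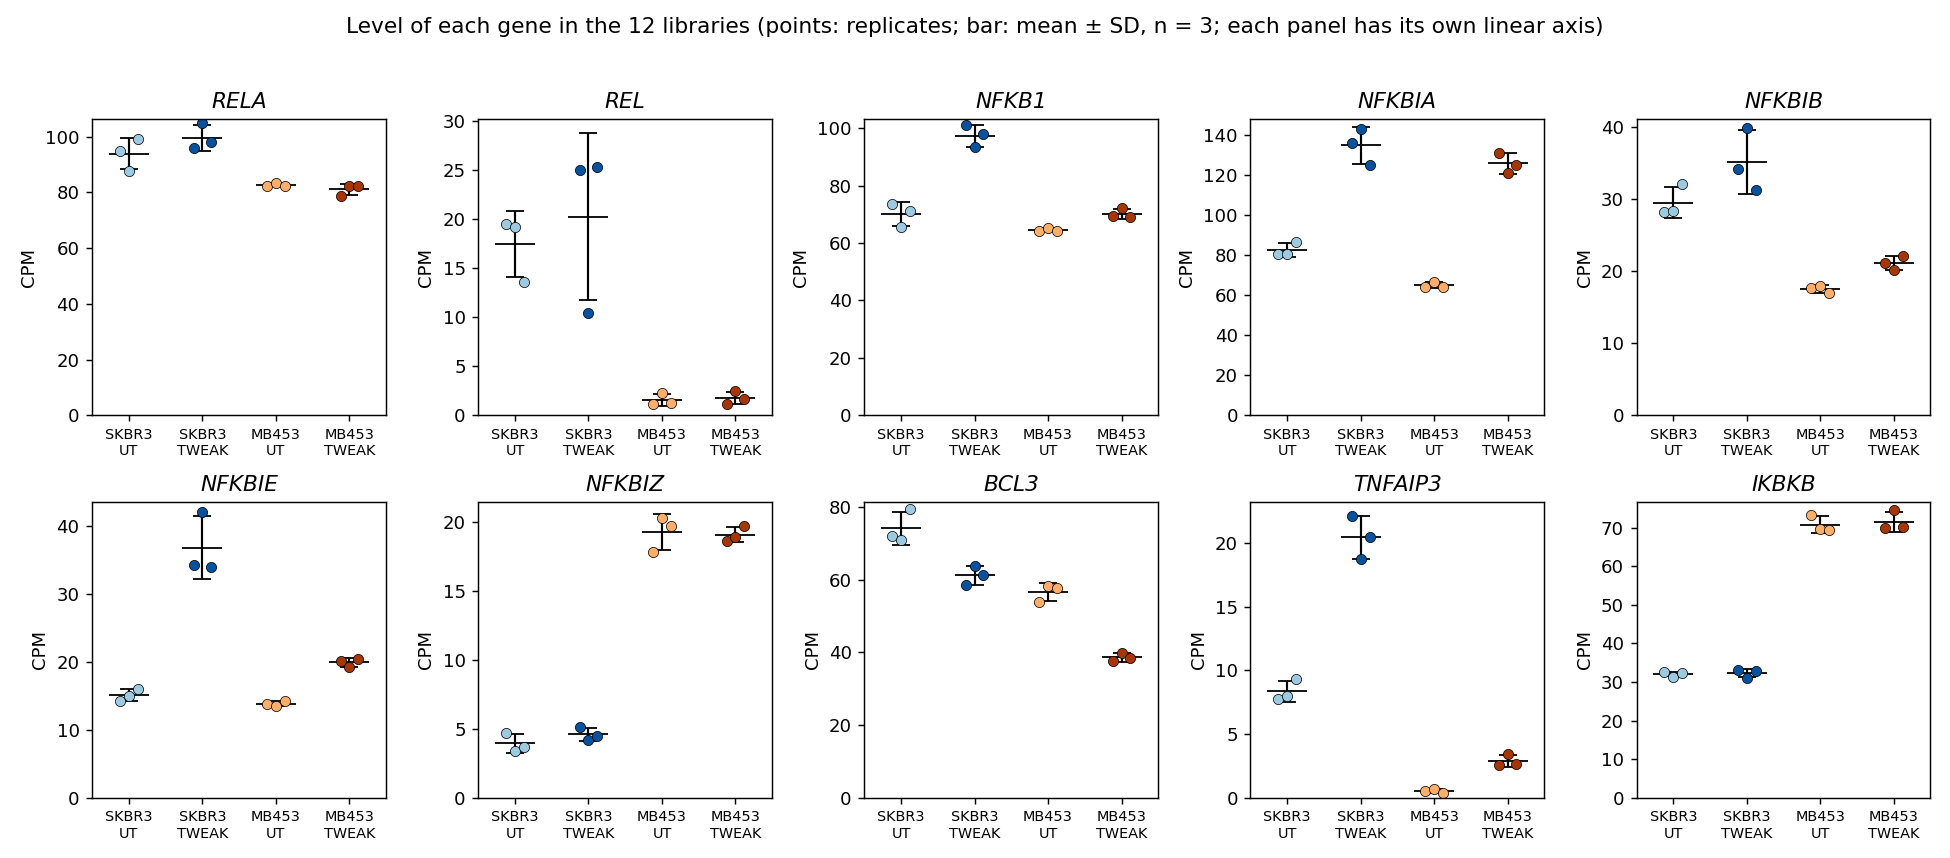
Level of each of the 10 genes in CPM (vertical axis, linear and separate for each gene) in the 4 groups, with 1 point per replicate and the mean ± SD of 3 replicates. TNFAIP3, NFKBIE and NFKBIA lie higher in all TWEAK-treated replicates than in the untreated replicates of the same line, BCL3 lies lower, and REL has 1 SKBR3 TWEAK replicate at 10.4 CPM against 25.0 and 25.3.

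RELA (ENSG00000173039, chromosome 11, 65653599 to 65663090, minus strand) encodes p65, the main transactivating subunit. It stood at 95, 87.9 and 99.1 CPM in untreated SKBR3 and at 96.1, 105 and 98.0 CPM in TWEAK-treated SKBR3. In MDA-MB-453 it stood at 82.5, 83.4 and 82.4 CPM untreated and at 78.8, 82.2 and 82.4 CPM with TWEAK. The conditions overlapped in both lines, and both lines kept RELA at a steady level with a coefficient of variation of at most 6% in any group. The log2 fold change was 0.078 (95% interval -0.073 to 0.23, adjusted p = 0.592) in SKBR3 and -0.028 (-0.11 to 0.054) in MDA-MB-453, so that the intervals of the fold run from 0.951 to 1.17 in SKBR3 and from 0.926 to 1.04 in MDA-MB-453.

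NFKB1 (ENSG00000109320, chromosome 4, 102501330 to 102617302, plus strand) encodes p105, the precursor of p50. Untreated SKBR3 replicates held 73.6, 65.5 and 71 CPM and TWEAK-treated ones 101, 93.3 and 97.9 CPM. The groups did not overlap, and the gene rose 1.39-fold in SKBR3 (log2 fold change 0.47, SE 0.067, adjusted p = 0.000986). In MDA-MB-453 it stood at 64.3, 65.3 and 64.3 CPM untreated and at 69.3, 72.3 and 69.2 CPM with TWEAK. These groups did not overlap either, yet the smaller difference (0.12, 95% interval 0.035 to 0.21) was not called, with an adjusted p of 0.276. It was called with offsets for GC content and gene length (0.17, adjusted p = 0.0238) and with the replicate number as a block (0.12, adjusted p = 0.0782). The increase was larger in SKBR3 by 0.36 on the log2 scale in the test of the difference between lines (95% interval 0.2 to 0.52, adjusted p = 0.0147).

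REL (ENSG00000162924, chromosome 2, 60881491 to 60931612, plus strand) encodes c-Rel, a subunit best known from lymphoid cells. It was the most variable of the 10 genes. In SKBR3 it stood at 19.5, 19.2 and 13.6 CPM untreated and at 25.0, 10.4 and 25.3 CPM with TWEAK, where the low value belongs to TWEAK replicate 2, the library unlike its companions. It was not called (log2 fold change 0.20, 95% interval -0.39 to 0.80, adjusted p = 0.735), and without TWEAK replicate 2 it was called higher (0.52, adjusted p = 0.000281). MDA-MB-453 held much less, with 1.19, 2.22 and 1.25 CPM untreated and 1.19, 2.42 and 1.66 CPM with TWEAK, or 31 to 65 counts per library. The difference of 0.17 on the log2 scale had an interval from -0.41 to 0.76 and changed sign to -0.093 without TWEAK replicate 2 of this line. The coefficient of variation of REL was 19.2% to 42% across the groups. A lncRNA, ENSG00000267520, covers 33.3% of its exonic bases on the same strand, and how reads there were assigned is not given in the sources used here.

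NFKBIA (ENSG00000100906, chromosome 14, 35401079 to 35404749, minus strand) encodes IκBα, the inhibitor that is resynthesised most quickly after NF-κB activation. Its levels were 80.6, 80.4 and 86.7 CPM in untreated SKBR3 and 136, 143 and 125 CPM with TWEAK. In MDA-MB-453 they were 64.2, 66.7 and 64.2 CPM untreated and 131, 121 and 125 CPM with TWEAK. Every treated replicate was above every untreated one in both lines, and the treated levels of the lines overlapped although the untreated levels did not. NFKBIA rose 1.62-fold in SKBR3 (log2 fold change 0.70, SE 0.070, adjusted p = 7.95e-05) and 1.93-fold in MDA-MB-453 (0.95, SE 0.041, adjusted p = 7.71e-09). The difference between these effects, -0.25 for SKBR3 minus MDA-MB-453, was not called (adjusted p = 0.158). It was called without SKBR3 TWEAK replicate 2 (-0.30, adjusted p = 0.00759) and with offsets for GC content and length (-0.28, adjusted p = 0.0108).

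NFKBIE (ENSG00000146232, chromosome 6, 44258166 to 44265788, minus strand) encodes IκBε, a slower feedback inhibitor. It held 14.3, 15 and 16 CPM in untreated SKBR3 and 34.3, 42.1 and 33.9 CPM with TWEAK. In MDA-MB-453 it held 13.8, 13.5 and 14.3 CPM untreated and 20.1, 19.2 and 20.4 CPM with TWEAK. The lines thus overlapped before treatment and were clearly apart after it. The increase was 2.43-fold in SKBR3 (log2 fold change 1.28, SE 0.10, adjusted p = 1.24e-05) and 1.43-fold in MDA-MB-453 (0.52, SE 0.059, adjusted p = 0.000146). The effect was larger in SKBR3 by 0.77 on the log2 scale (95% interval 0.52 to 1.01, adjusted p = 0.000782), and by 0.62 without TWEAK replicate 2 of both lines (adjusted p = 1.46e-05).

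NFKBIB (ENSG00000104825, chromosome 19, 38899700 to 38908893, plus strand) encodes IκBβ, a classical inhibitor. In SKBR3 it stood at 28.2, 28.3 and 32 CPM untreated and at 34.2, 39.9 and 31.2 CPM with TWEAK. The groups overlapped, and the log2 fold change of 0.25 (95% interval 0.031 to 0.47) was not called, with an adjusted p of 0.188. It was called without TWEAK replicate 3 (0.33, adjusted p = 0.0901), with offsets for GC content and length (0.19, adjusted p = 0.067) and with all 12 libraries in 1 fit (0.25, adjusted p = 0.0536). In MDA-MB-453 it stood at 17.7, 17.9 and 16.9 CPM untreated and at 21.1, 20.1 and 22.1 CPM with TWEAK, with no overlap. This increase of 1.21-fold (0.27, SE 0.058, adjusted p = 0.0365) was not called in DESeq2 (adjusted p = 0.194), with all 12 libraries in 1 fit (adjusted p = 0.39), or without untreated replicate 1, 2 or 3 or TWEAK replicate 3 (adjusted p = 0.101, 0.133, 0.258 and 0.305). The 2 effects did not differ detectably, with a difference of -0.018 and an interval from -0.27 to 0.23. The gene SIRT2 overlaps 1.72% of its exonic bases on the opposite strand.

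TNFAIP3 (ENSG00000118503, chromosome 6, 137867214 to 137883314, plus strand) encodes A20, a ubiquitin-editing enzyme that shuts off signalling upstream of the IκB kinase. It held 7.79, 8.02 and 9.31 CPM in untreated SKBR3 and 22.1, 18.7 and 20.5 CPM with TWEAK. In MDA-MB-453 it held 0.557, 0.656 and 0.367 CPM untreated, which is 15, 18 and 10 counts, and 2.58, 3.43 and 2.67 CPM with TWEAK, or 67, 92 and 98 counts. No group overlapped another, and even treated MDA-MB-453 stayed under untreated SKBR3. TNFAIP3 rose 2.44-fold in SKBR3 (log2 fold change 1.28, SE 0.099, adjusted p = 1.12e-05) and 5.42-fold in MDA-MB-453 (2.44, SE 0.23, adjusted p = 2.58e-05, 95% interval of the fold 3.88 to 7.59). The effect in SKBR3 was smaller by 1.15 on the log2 scale in the test of the difference (-1.15, 95% interval -1.69 to -0.61, adjusted p = 0.0207). That call was lost without MDA-MB-453 untreated replicate 3, the replicate with 10 counts (-0.95, adjusted p = 0.135).

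BCL3 (ENSG00000069399, chromosome 19, 44747705 to 44760044, plus strand), an atypical IκB protein that binds p50 and p52 dimers in the nucleus, was the gene of the 10 that fell. In SKBR3 it stood at 72.0, 70.9 and 79.3 CPM untreated and at 58.6, 63.7 and 61.2 CPM with TWEAK. In MDA-MB-453 it stood at 53.9, 58.3 and 57.7 CPM untreated and at 37.5, 39.9 and 38.4 CPM with TWEAK. The groups did not overlap in either line. The log2 fold change was -0.28 in SKBR3 (SE 0.070, adjusted p = 0.0328) and -0.55 in MDA-MB-453 (SE 0.047, adjusted p = 1.11e-05), which is a level lower by 17.7% and 31.9%. In SKBR3 the call was lost without untreated replicate 1 (-0.30, adjusted p = 0.101), untreated replicate 3 (-0.22, adjusted p = 0.148) or TWEAK replicate 1 (-0.25, adjusted p = 0.132). The difference between the lines, 0.28, was not called (adjusted p = 0.114), nor in 13 of 20 alternatives. It was called in DESeq2 (adjusted p = 0.0858), with at least 10 counts in every library (adjusted p = 0.0898), and with offsets for GC content and length (0.27, adjusted p = 0.0432). It was also called without SKBR3 untreated replicate 3 (0.32, adjusted p = 0.0614), without SKBR3 TWEAK replicate 2 (0.23, adjusted p = 0.0963) and without TWEAK replicate 2 of both lines (0.26, adjusted p = 0.0287).

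NFKBIZ (ENSG00000144802, chromosome 3, 101827991 to 101861022, plus strand) encodes IκBζ, a nuclear cofactor known from the response to interleukins and Toll-like receptor ligands. It stood at 4.7, 3.39 and 3.71 CPM in untreated SKBR3 and at 5.13, 4.21 and 4.5 CPM with TWEAK. In MDA-MB-453 it stood at 17.8, 20.3 and 19.7 CPM untreated and at 18.6, 18.9 and 19.7 CPM with TWEAK. Conditions overlapped in both lines, with a log2 fold change of 0.22 in SKBR3 (95% interval -0.12 to 0.55, adjusted p = 0.483) and -0.012 in MDA-MB-453 (-0.14 to 0.12). Its level followed the line, and it was not called under treatment in either line.

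IKBKB (ENSG00000104365, chromosome 8, plus strand) encodes IKKβ, the kinase of the canonical branch. It stood at 32.5, 31.4 and 32.3 CPM in untreated SKBR3 and at 33.1, 31.0 and 32.9 CPM with TWEAK. In MDA-MB-453 it stood at 73.2, 69.7 and 69.4 CPM untreated and at 69.8, 74.5 and 70.2 CPM with TWEAK. The conditions overlapped in both lines, and the intervals of the log2 fold change were narrow, from -0.14 to 0.15 in SKBR3 and from -0.080 to 0.11 in MDA-MB-453. Together with RELA it had the smallest fitted changes of the set in SKBR3.

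**Figure D2:**
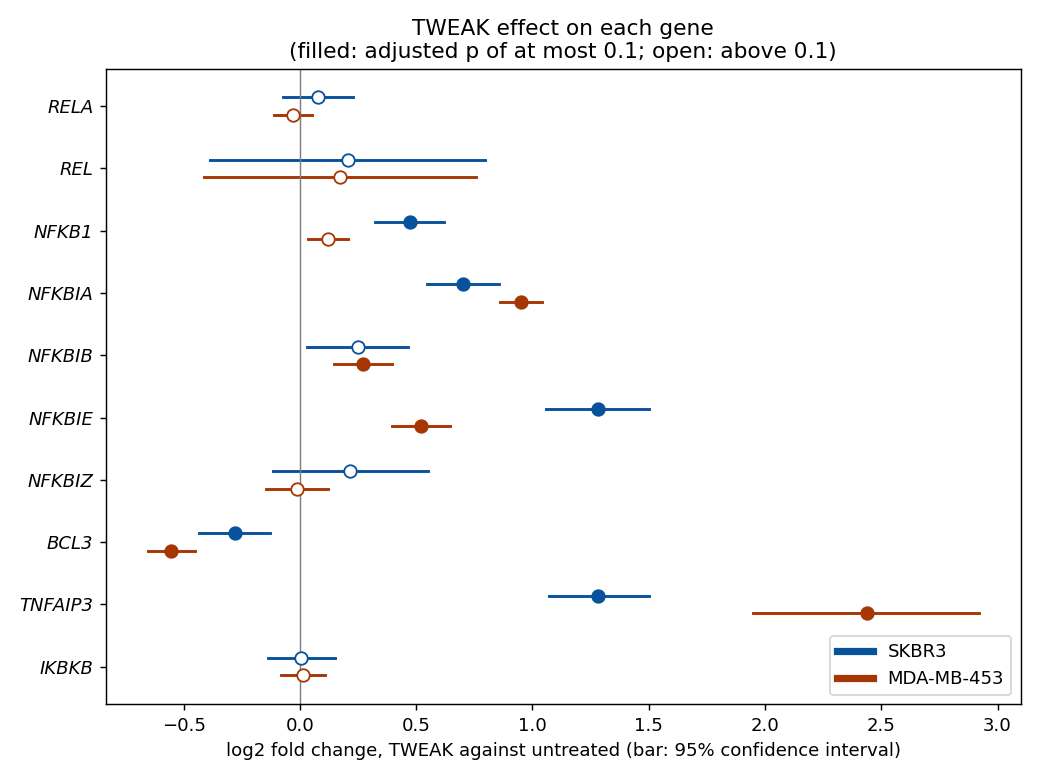
Log2 fold change of TWEAK-treated against untreated replicates for each gene (horizontal axis) with its 95% confidence interval, SKBR3 in blue and MDA-MB-453 in orange, filled where the adjusted p was at most 0.1. NFKBIE lies further right in SKBR3 (1.28 against 0.52) and TNFAIP3 in MDA-MB-453 (2.44 against 1.28), while RELA and IKBKB lie at 0 within their intervals in both lines.

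The difference between lines was tested with an interaction term fitted to the 12 libraries, which was called for 3.37% of 17201 genes tested (2.36% higher and 1.01% lower for SKBR3 minus MDA-MB-453). It called NFKB1 and NFKBIE, with the larger effect in SKBR3, and TNFAIP3, with the larger effect in MDA-MB-453. The other 7 genes were not called, and the intervals of RELA (-0.050 to 0.27), NFKBIZ (-0.092 to 0.56) and IKBKB (-0.16 to 0.16) bound the differences that the data allow. Without TWEAK replicate 2 of both lines, 5 of 10 genes were called (3 higher and 2 lower), where 11.9% of all genes tested were. REL was the least determined, with an interval from -1.13 to 1.21.

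The lines differed in the level of most of these genes before any treatment. Between untreated replicates, 9 of 10 genes were called, 7 higher and 2 lower in SKBR3, where 84.2% of 17201 genes tested were called (43.5% higher and 40.7% lower). Replicates of the lines did not overlap for 9 of 10 genes, as for 84.3% of all genes tested, so that both counts are close to the background. The 2 genes with the largest differences were TNFAIP3, 15.7-fold higher in SKBR3 (log2 fold change 3.98, SE 0.18, adjusted p = 1.04e-12), and REL, 11.2-fold higher (3.48, SE 0.34, adjusted p = 4.26e-08). NFKBIZ and IKBKB were lower in SKBR3, by a log2 fold change of -2.28 (SE 0.10, adjusted p = 9.31e-13) and -1.14 (SE 0.054, adjusted p = 1.35e-12). NFKBIB was 1.68-fold, BCL3 1.31-fold and NFKBIA 1.27-fold higher in SKBR3. The smaller differences of RELA (0.18, adjusted p = 0.00464) and NFKB1 (0.12, adjusted p = 0.0588) depended on the settings. With offsets for GC content and gene length, RELA stood at -0.0059 (adjusted p = 0.897). NFKB1 was not called with no filter on low counts (adjusted p = 0.184) or without SKBR3 untreated replicate 1 or 3 or MDA-MB-453 untreated replicate 1 or 3 (adjusted p = 0.238, 0.126, 0.135 and 0.14). NFKBIE was not called (0.12, 95% interval -0.065 to 0.31, adjusted p = 0.213), except without SKBR3 TWEAK replicate 2 (0.12, adjusted p = 0.0933).

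Between TWEAK-treated replicates 9 of 10 genes were again called, where 84.7% of all genes tested were (43.9% higher and 40.8% lower). The lines did not overlap for 9 of 10 genes, against 80.7% of all. NFKBIE was now 1.85-fold higher in SKBR3 (log2 fold change 0.89, SE 0.078, adjusted p = 9.2e-09), and NFKBIA was not called (0.099, 95% interval -0.019 to 0.22, adjusted p = 0.111). NFKBIA was called with size factors of DESeq2 (0.12, adjusted p = 0.0713), with at least 10 counts in every library (0.13, adjusted p = 0.0431), without SKBR3 TWEAK replicate 3 (0.16, adjusted p = 0.017) and without MDA-MB-453 TWEAK replicate 1 (0.13, adjusted p = 0.0793). RELA was higher by 0.30 (adjusted p = 7.31e-05), and by 0.069 with offsets for GC content and length (adjusted p = 0.124). The difference in TNFAIP3 was 7.1-fold (2.83, SE 0.12, adjusted p = 2.08e-13). REL, NFKBIZ and IKBKB differed by about as much as without treatment, at 3.52, -2.05 and -1.14 on the log2 scale.

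The order of the 4 groups differed between the genes. NFKBIE and TNFAIP3 were highest in TWEAK-treated SKBR3, and no neighbours in the order of TNFAIP3 overlapped. For NFKBIE, untreated SKBR3 and untreated MDA-MB-453 overlapped at the low end. NFKBIA was high in both treated groups, which overlapped at 135 ± 9.12 and 126 ± 4.65 CPM (SD, n = 3). RELA, REL, NFKBIZ and IKBKB were ordered by line, with both conditions of a line overlapping. NFKBIB was ordered by line too, with overlap between treated (35.1 ± 4.38 CPM) and untreated SKBR3 (29.5 ± 2.21) and none between treated (21.1 ± 1.0) and untreated MDA-MB-453 (17.5 ± 0.527). BCL3 ran from untreated SKBR3 (74.1 ± 4.62 CPM) through TWEAK-treated SKBR3 (61.2 ± 2.56) and untreated MDA-MB-453 (56.7 ± 2.39) to TWEAK-treated MDA-MB-453 (38.6 ± 1.25), with no overlap between neighbours. NFKB1 was highest in TWEAK-treated SKBR3 (97.5 ± 3.95 CPM), and treated MDA-MB-453 (70.3 ± 1.75) overlapped untreated SKBR3 (70.0 ± 4.13).

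Levels were compared between genes after division by the length of the canonical transcript, as RPKM, that is CPM per kilobase. NFKBIA had the highest level of the 10 genes in each group, from 41.7 ± 0.934 RPKM in untreated MDA-MB-453 to 86.3 ± 5.85 in TWEAK-treated SKBR3 (SD, n = 3). RELA (32.2 to 39.6 RPKM) and BCL3 (20.6 to 39.5 RPKM) followed in the means. NFKB1 lay at 15.9 to 24.0 RPKM, NFKBIB at 14.7 to 29.4 RPKM and IKBKB at 8.14 to 18.2 RPKM. NFKBIE had means of 5.92 to 15.7 RPKM and NFKBIZ of 1.0 to 4.91 RPKM. REL and TNFAIP3 were the lowest in MDA-MB-453, where REL had means of 0.14 and 0.158 RPKM and TNFAIP3 of 0.113 and 0.62 RPKM. This order depends on the length used. With the length of all exonic bases of a gene in its place, single libraries held NFKB1 at 4.1 to 6.46 RPKM, NFKBIE at 5.24 to 16.3 and IKBKB at 2.81 to 6.74, while NFKBIA lay at 18.9 to 42.0 and BCL3 came close to it in untreated SKBR3, with 25.6 for both in replicate 3.

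**Figure D3:**
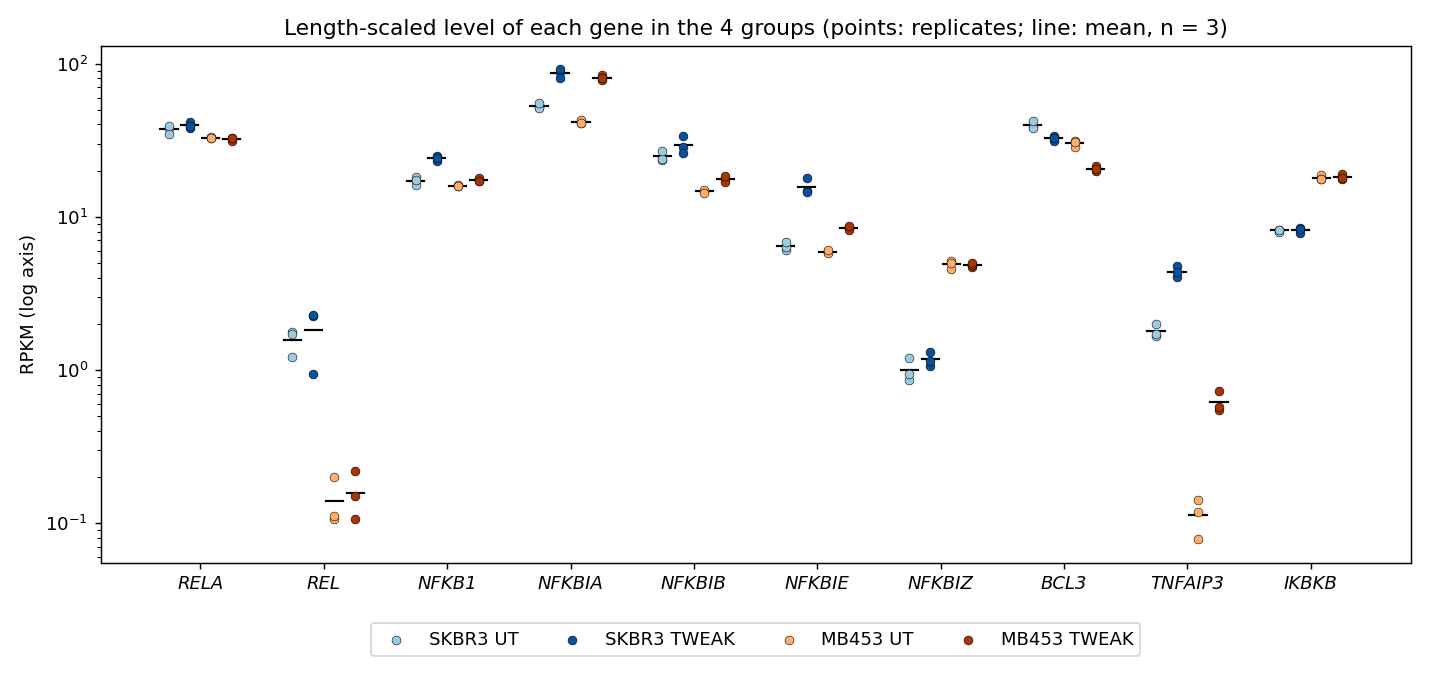
Length-scaled level of the 10 genes in RPKM (vertical log axis) in the 4 groups, with 1 point per replicate and a line at the mean of 3. NFKBIA is at the top in every group, and REL and TNFAIP3 are spread furthest between the lines.

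The makeup of the subunit mRNA pool was described with the 2 non-canonical subunit genes included. Of the summed length-scaled level of RELA, REL, RELB, NFKB1 and NFKB2, RELA took 43.4% ± 0.627 in untreated SKBR3 and 24.2% ± 0.452 with TWEAK, and 56.9% ± 0.288 and 40.3% ± 1.2 in MDA-MB-453 (SD, n = 3). NFKB1 took 20.1% untreated and 14.8% with TWEAK in SKBR3, and 27.6% untreated and 21.6% with TWEAK in MDA-MB-453. The share of NFKB2 went from 25.9% ± 1.09 to 47.4% ± 0.884 in SKBR3 and from 14.4% ± 0.493 to 33.2% ± 1.51 in MDA-MB-453. RELA therefore had a smaller share with TWEAK at a level that was not called changed, since shares have 1 common total. Replicates of the 2 conditions did not overlap for RELA, NFKB1 or NFKB2 in either line. These shares were not tested, as they rest on the levels already compared. Their size depends on the length used. With the length of all exonic bases NFKB1 took 11% untreated and 7.52% with TWEAK in SKBR3, and 17% untreated and 12.2% with TWEAK in MDA-MB-453.

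Within the 5 IκB genes, NFKBIA took 42.5% ± 0.493 of the summed level in untreated SKBR3 and 52.3% ± 1.15 with TWEAK, and 42.8% ± 0.452 and 61.0% ± 1.07 in MDA-MB-453. BCL3 took 31.7% ± 0.251 untreated and 19.8% ± 1.17 with TWEAK in SKBR3, and 31.0% ± 0.726 untreated and 15.6% ± 0.85 with TWEAK in MDA-MB-453. The shares of NFKBIA and BCL3 in untreated cells were thus close in the lines. NFKBIZ took 0.808% of the untreated sum in SKBR3 but 5.03% of that in MDA-MB-453, and NFKBIB 19.8% and 15.1%. The summed length-scaled level of the classical inhibitors NFKBIA, NFKBIB and NFKBIE, divided by that of RELA, REL and NFKB1, was 1.41, 1.55 and 1.54 in untreated SKBR3 and 2.0, 2.18 and 1.85 with TWEAK. In MDA-MB-453 it was 1.27, 1.29 and 1.26 untreated and 2.27, 2.03 and 2.15 with TWEAK. The treated ratios lay above the untreated ones in both lines. The size of the ratio depends on the lengths used, and from counts without division by length the means were 0.701 untreated and 0.953 with TWEAK in SKBR3, and 0.647 untreated and 1.09 with TWEAK in MDA-MB-453. It concerns mRNA, not protein, and was not tested.

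**Figure D4:**
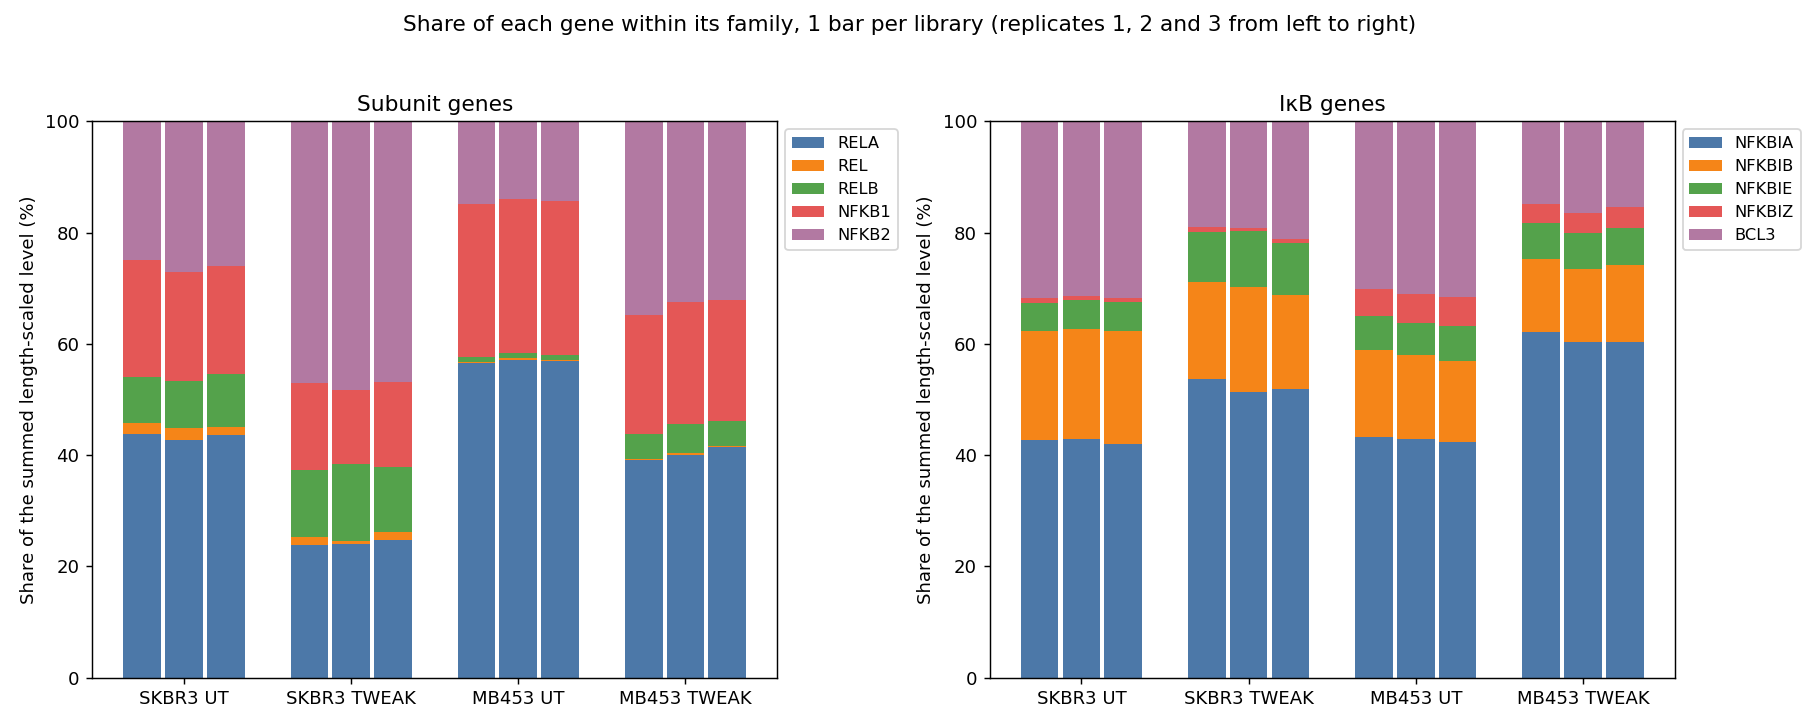
Share of each gene in the summed length-scaled level of the subunit genes (left) and the IκB genes (right), in percent, with 1 stacked bar per library. NFKB2 takes a larger part of the subunit bars and BCL3 a smaller part of the IκB bars in the TWEAK-treated libraries of both lines.

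The genes around this core were read from 4 lists of the pathway, which were also chosen with earlier results of these data known. The receptor and kinase steps from Fn14 and the TNF receptor to the IκB kinase had 6 of 20 genes higher and 1 lower in SKBR3 and 1 of 20 higher in MDA-MB-453. Over all genes tested, 6.6% were called higher and 3.82% lower in SKBR3, while MDA-MB-453 had 1.29% higher and 0.208% lower. Other regulators of the pathway had 7 of 19 tested genes higher in SKBR3 and 2 of 19 in MDA-MB-453. The 4 genes of the non-canonical branch rose in both lines. Of 32 further target genes, 18 were tested in SKBR3 with 8 higher, and 15 in MDA-MB-453 with 5 higher, and the cytokine genes IL6, IL1B, CXCL1, CXCL2, CXCL3 and CCL20 had too few counts to be tested in either line. Over the 73 distinct genes of these lists, 22 rose and 1 fell among 58 tested in SKBR3 (median log2 fold change 0.19, against -0.0074 over all genes tested), and 10 rose among 55 in MDA-MB-453 (median 0.046, against 0.0016). Without TWEAK replicate 2, 16 list genes were higher in MDA-MB-453 and 1 lower, where 6.59% and 7.22% of all genes tested were.

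BIRC3, which encodes the ubiquitin ligase cIAP2 at the receptor complex and is also a target gene, rose most among the list genes called in both lines. It went from 2.25 ± 0.018 to 24.2 ± 1.35 CPM in SKBR3 (log2 fold change 3.42, SE 0.099, adjusted p = 1.85e-08) while MDA-MB-453 went from 0.662 ± 0.080 to 7.96 ± 0.927 CPM (3.57, SE 0.17, adjusted p = 1.57e-08), with 16 to 20 counts in the untreated libraries of MDA-MB-453. TNFRSF12A, which encodes Fn14 itself, went from 66.3 ± 5.8 to 85.6 ± 8.75 CPM in SKBR3 (0.36, SE 0.090, adjusted p = 0.0322), and in MDA-MB-453 its difference of 0.17 was not called (adjusted p = 0.129). The receptor was thus transcribed in both lines before treatment, at 66.3 CPM in SKBR3 and 52.1 CPM in MDA-MB-453. Further steps called in SKBR3 were the TNF receptor gene TNFRSF1A (0.22, adjusted p = 0.0586) and the adaptor genes TRAF1 (3.30, adjusted p = 1.01e-05), TRAF2 (0.84, adjusted p = 4.46e-05) and TRADD (0.47, adjusted p = 0.024). MAP3K3, a kinase gene, was the one that fell (-0.25, adjusted p = 0.0504), and no list gene was called lower without untreated replicate 1, 2 or 3 or TWEAK replicate 1 or 3. TNFRSF1A, TRAF1, TRAF2, TRADD and MAP3K3 fall outside the rule for named genes and were chosen after their values were seen.

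Among the other regulators, TNIP1, whose product is a partner of A20, rose by 0.85 on the log2 scale in SKBR3 (SE 0.076, adjusted p = 3.91e-05) and by 0.26 in MDA-MB-453 (SE 0.041, adjusted p = 0.00399). CYLD, a deubiquitinase that restrains the pathway, rose by 0.39 (SE 0.081, adjusted p = 0.0133) and 0.32 (SE 0.054, adjusted p = 0.00544). Negative regulators other than the 10 genes were therefore among those that rose in both lines. The effect on TNIP1 was larger in SKBR3 by 0.60 in the test of the difference (adjusted p = 0.000499).

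The non-canonical genes had larger log2 fold changes than the canonical subunit genes in both lines, a difference that was not tested. NFKB2, which encodes p100, rose 3.46-fold in SKBR3 (1.79, SE 0.072, adjusted p = 9.34e-08) and 3.19-fold in MDA-MB-453 (1.67, SE 0.051, adjusted p = 3.01e-10). RELB rose 2.71-fold (1.44, SE 0.12, adjusted p = 1.73e-05) and 6.72-fold (2.75, SE 0.14, adjusted p = 2.95e-08), and its effect was larger in MDA-MB-453, with a difference of -1.30 for SKBR3 minus MDA-MB-453 (adjusted p = 0.00158). MAP3K14, which encodes NIK, rose by 1.56 and 1.95, and TRAF3, a negative regulator of NIK, by 0.55 and 0.46. Among target genes, ICAM1, an adhesion molecule, rose by 2.48 and 0.55, IRF1, a transcription factor of interferon responses, by 1.09 and 1.22, and TNFAIP2 by 1.21 and 0.86, each called in both lines. The effect on ICAM1 was larger in SKBR3 by 1.93 (adjusted p = 1.3e-07). Genes on the opposite strand overlap 25.4% of the exonic bases of ICAM1, 22.9% of those of IRF1 and 15.1% of those of MAP3K14. The strand setting of the counts is not given, and the part of these overlaps in the fold changes was not tested.

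**Figure D5:**
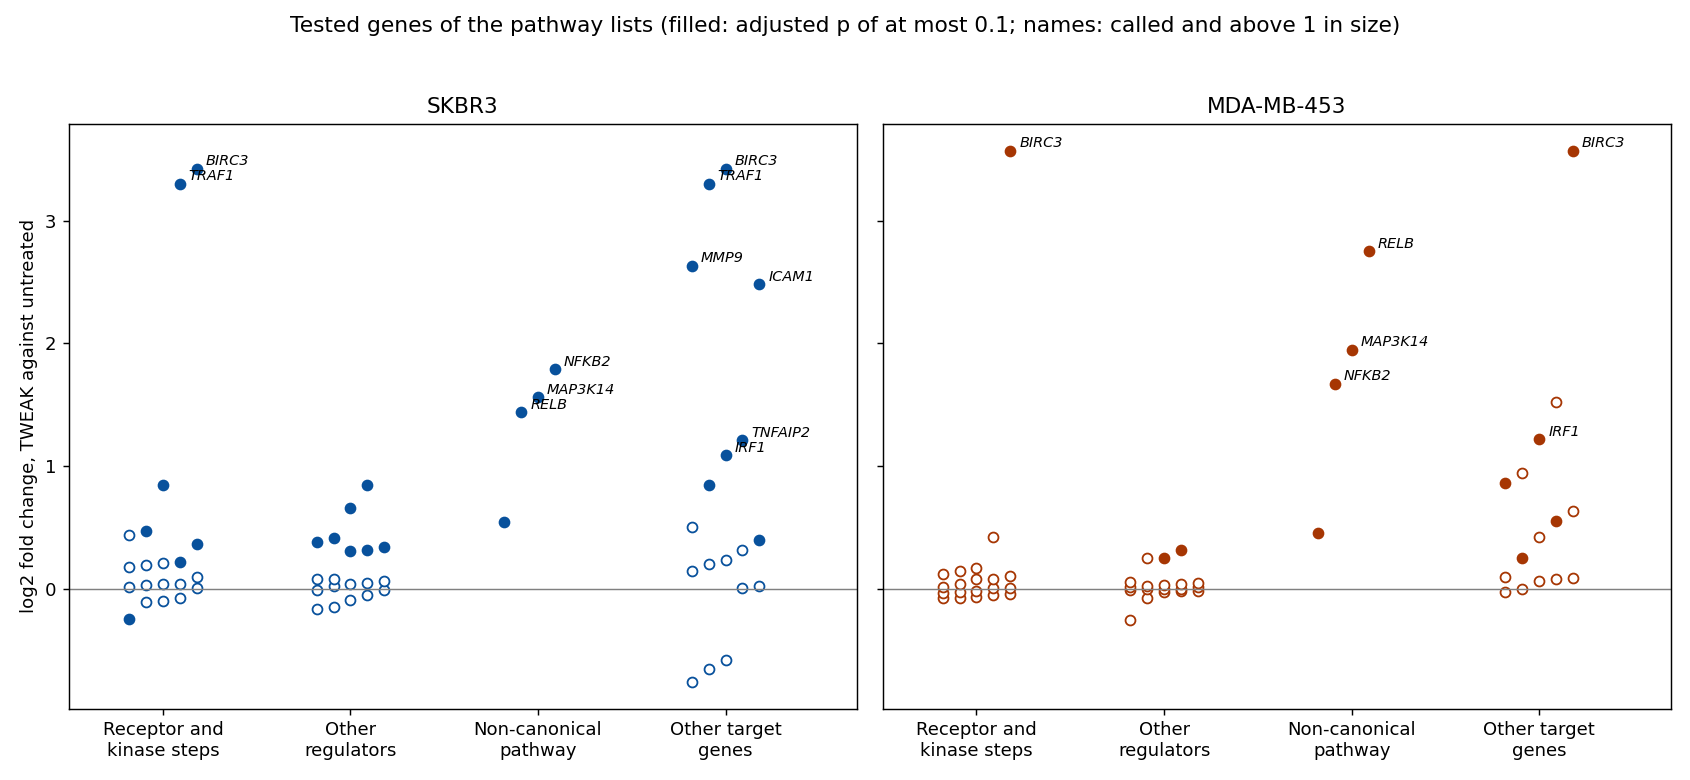
Log2 fold change under TWEAK of every tested gene of the 4 pathway lists (vertical axis) in SKBR3 (left) and MDA-MB-453 (right), with 1 point per gene, filled where the adjusted p was at most 0.1. BIRC3, TRAF1 and TNIP1 stand in 2 lists each. All 4 non-canonical genes lie above 0 in both panels, and BIRC3 is the highest point in each.

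The κB match was also counted in these lists. It was present in 16 of 28 target genes with a promoter entry (57.1%) and 6 of 19 other regulators (31.6%). It was also present in 2 of 3 non-canonical genes and 2 of 17 genes of the receptor and kinase steps (11.8%). Of all genes, 13.3% had it. The looser pattern was present in 89.3% of these target genes and 94.7% of the other regulators. All 3 non-canonical genes and 94.1% of the receptor and kinase genes had it too, against 61.7% of all genes. RELA, with no κB match in its 2 windows, was not called under TWEAK. REL and NFKBIZ each had a κB match and were not called in either line. Without TWEAK replicate 2, REL was called higher in SKBR3 (0.52). NFKBIA and TNFAIP3 had a match and rose in both lines. NFKB1, with a match, was called higher in SKBR3 and NFKBIB, with a match, in MDA-MB-453. BCL3 had a match and fell.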

How the data were processed

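Per the labels and the study's methods, the authors used Trimmomatic to remove adaptors, STAR to align to hg38 and featureCounts to count reads on genes. The deposited values are raw counts, whole numbers with no normalisation. Tool versions, strand setting, multi-mapping and annotation release are not given in the sources used here, and the labels and the methods name different library kits. Of 62696 identifiers, 61918 were found in GENCODE release 44 under the same version, 707 under another version and 71 were not found. That release gave symbols, positions and lengths.

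The 6 libraries of a line were used to compare TWEAK-treated with untreated replicates, and all 12 to compare lines and for the interaction, with edgeR 4.0.16 (R 4.3.3), filterByExpr, TMM, quasi-likelihood fits without a block, and Benjamini-Hochberg adjustment over all genes tested, called at 0.1. The prior count behind a fitted fold change was 0.125. The tests were tried on simulated data, and the outcome is not given here. All 10 genes are named, with NFKB2, RELB and TNFRSF12A and, from each list, up to 4 genes called in both lines. The genes and lists were chosen with earlier results of these data known. Alternatives were DESeq2 1.42.0, its size factors, other filters, offsets for GC content and length, the replicate number as a block, a threshold of 0.05, and each library left out.

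Totals of 24773003 to 35208304 counts put the floor of 3 counts near 0.1 CPM. Intervals cover the spread between replicates, and floors counting error only. Without molecular identifiers, duplicate reads were not removed here.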

Additional observations from a re-analysis of the deposited data

Results flagged for a closer look

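The effect of TWEAK differed between the lines for 3 of the 10 genes in the interaction test of edgeR, with Benjamini-Hochberg adjustment over 17201 genes, of which 3.37% were called (2.36% higher and 1.01% lower). NFKB1 stands out because its increase was larger in SKBR3 by 0.356 on the log2 scale (adjusted p = 0.0147). NFKBIE stands out for an increase larger in SKBR3 by 0.765 (adjusted p = 0.000782). TNFAIP3 stands out because its effect in SKBR3 minus that in MDA-MB-453 was -1.15 (adjusted p = 0.0207), from untreated levels of 10 to 18 counts per library in MDA-MB-453. That call was lost without MDA-MB-453 untreated replicate 3 (-0.945, adjusted p = 0.135). All 3 treated replicates were above all 3 untreated ones for each of these genes in each line. No outlier test was run on the levels of single genes, since each group has 3 samples. What sets these differences between lines was not tested.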

How the results depend on the processing

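Of 890 fold changes of the 10 genes under an alternative, over 5 comparisons, 849 kept their side of the threshold, and called ones their direction. This held under all alternatives run for 37 of 50. Fold changes that were not called could change sign, as REL did in MDA-MB-453. Of 238 counts of calls, 219 were within 1.5 times the main count, and 9 of 14 were so under all alternatives run. RELA between untreated lines turned from 0.18 to -0.0059 with offsets for GC content and length; the cause was not tested. The number of these genes lower in SKBR3 ranged from 0 to 1 when single libraries were left out, and that of genes lower in the interaction from 0 to 2, with 2 under GC and length offsets, with or without the block. For list genes, the number lower in SKBR3 ranged from 0 to 1 over left-out libraries and was 0 with the replicate block, 0 at a threshold of 0.05 and 2 with all 12 libraries in 1 fit. The number higher in MDA-MB-453 ranged from 9 to 16, and was 16 with the offsets and the block together, and the number lower ranged from 0 to 1.

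The labels do not say that a replicate number marks a shared day or batch, and the samples were not treated as paired. The paper states that independent repeats of cell line work fell on different days, without tying a replicate number to a day. Same-numbered deviations correlated at 0.115, -0.0974 and -0.161 in SKBR3 and at 0.0862, 0.0832 and 0.025 in MDA-MB-453, where each sample correlated best with its own number, a hint of pairing in that line from the data alone. With the replicate block, NFKB1 in MDA-MB-453 was called at 0.12 (adjusted p = 0.0782), and no other call on the 10 genes changed with the block alone. With the block alone, genes called over the whole table numbered 824 higher and 387 lower in SKBR3, against 1034 and 599, and 490 and 404 in MDA-MB-453, against 192 and 31. With the offsets and the block together, the interaction was also called for NFKBIA (-0.28, adjusted p = 0.0275) and BCL3 (0.27, adjusted p = 0.0267). In MDA-MB-453, TNFAIP3 held 10 to 18 counts per untreated library and REL 31 to 65 counts per library. The effect of sequencing depth on these 2 genes was not tested.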
